A study of Cavia porcellus with 34 samples.

Results

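Fibroblast and leptomeningeal genes are the subject here: 10 genes whose products are mainly secreted proteins of connective tissue, measured in RNA from the paraventricular nucleus of the hypothalamus (PVN) of young female guinea pigs. The members are the small leucine-rich proteoglycans DCN (decorin), LUM (lumican), OGN (osteoglycin) and BGN (biglycan), the matrix proteins FBLN1 (fibulin-1), MGP (matrix Gla protein) and THSD4, the olfactomedin-like proteins OLFML1 and OLFML3, and PTGDS (prostaglandin D synthase). They were chosen by symbol, with OLFML1 and THSD4 selected from their measured rise in the first generation, and were looked up in each of the 3 deposited tables. There were 12114 genes in F1, 12207 in F2 and 12068 in F3, or 12592 in any of the tables. A row was found for 4 of the 10 members in F1 (OLFML1, THSD4, LUM and FBLN1), for the same 4 in F2 and for 9 in F3. PTGDS had no row in the tables used here and is not analysed.

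The study asked whether treating a pregnant guinea pig with synthetic glucocorticoid changes gene expression in her descendants. Pregnant F0 females received repeated courses of betamethasone, a synthetic glucocorticoid that crosses the placenta (the sGC group), or saline vehicle (the Veh group). The F1 animals, 5 per group, were exposed in the womb. The F2 animals, 5 per group, and the F3 animals, 6 per group, descended from the same treatments through the paternal line, by mating male descendants with untreated females, and were not treated themselves. Tissue was taken on postnatal day 40, and 32 of the 34 samples in the series were analysed. The remaining 2 are second sequencing runs of F3 Veh animals. The RNA came from a punch of the anteromedial hypothalamus that held the whole PVN and could include adjoining tissue. Animals are named as in the labels. The names SGM21 and SGM22 of F2 recur in F3 as SGM21-batch2 and SGM22-batch2, which the labels list as F3 animals.

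The leptomeninges, the pia and arachnoid mater, are thin sheets of fibroblasts on the surface of the brain, and related fibroblasts line the larger vessels that enter it. These cells lay down collagen fibrils, and the small leucine-rich proteoglycans bind to those fibrils and set their thickness and spacing. Neurons and most glia make little of this matrix, so in brain tissue its transcripts come mainly from meninges and vessel walls. The PVN lies deep in the hypothalamus beside the third ventricle and is defined by neurons that make vasopressin (AVP), oxytocin (OXT) and corticotropin-releasing hormone (CRH).

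Values are given as normalized counts, the whole numbers that the authors deposited after normalization. They summed to between 15573233 and 21935501 per animal in F1, between 15645962 and 19435104 in F2 and between 18692048 and 18977539 in F3. The number of reads behind each value is unknown, and only differences between animals for the same gene are compared. PVN neuron markers were present in every animal: all 8 of the list had a row in each table, AVP reached at least 10482 normalized counts in every F1 animal, and no marker of the list was at 0. A longer list of 55 further fibroblast and leptomeningeal genes, such as collagens, elastic fibre proteins and meningeal transporters, was used to check the label. Of these, 22 had a row in F1, 18 in F2 and 43 in F3. In bulk tissue, more cells of a type and more RNA per cell cannot be told apart.

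Most members with a row in F3 had none in F1 and F2. Of all genes in the F3 table, 97.3% also had a row in F1 and 98.2% in F2. Of the 9 members in the F3 table, 4 (44.4%) had a row in F1 and 4 in F2, and DCN, OGN, BGN, MGP and OLFML3 had none in either. Of the 43 further fibroblast genes in the F3 table, 22 (51.2%) were in the F1 table and 18 (41.9%) in the F2 table. The fibrillar collagens COL1A1, COL1A2 and COL3A1 and the growth factor IGF2 were among the genes in F3 alone. Matrix families differed in how many rows they kept. All 9 ADAMTS-like and thrombospondin-repeat relatives of THSD4 were in every table. Of 12 further small leucine-rich proteoglycans 9 were in F1, 7 in F2 and 9 in F3. The authors removed outlying values by Cook's distance before deposit, and whether this removed the rows was not tested. The F1 and F2 values below therefore describe 4 members only, and those 4 are the rows that remained.

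In F1, all 4 members with a row had a higher median in sGC than in Veh animals. Since OLFML1 and THSD4 were chosen from this contrast, the F1 values are a description without a test. OLFML1, a secreted protein with an olfactomedin domain, had 9, 15, 12, 15 and 10 normalized counts in the Veh animals SGM3, SGM7, SGM11, SGM15 and SGM19. In the sGC animals SGM4, SGM8, SGM12, SGM16 and SGM20 it had 207, 28, 360, 42 and 21. SGM12 and SGM4 stood well above the other 3 sGC animals. The mean was 12.2 ± 2.77 in Veh and 132 ± 149 in sGC (SD, n = 5 each), so the SD of the sGC group was larger than its mean. The medians, 12 and 42, differed less than the means, a ratio of medians of 3.50 against a ratio of means of 10.8. On the log2(value + 1) scale the difference was 2.49 (SE 0.53). It was 2.11 without SGM4 and 1.91 without SGM12.

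THSD4, also known as ADAMTSL6, helps fibrillin-1 to assemble into the microfibrils of elastic tissue. It had 32, 30, 27, 26 and 22 normalized counts in the F1 Veh animals, and 171, 64, 47, 72 and 52 in the F1 sGC animals, each in the order given for OLFML1. SGM4 had 2.38 times the value of the next animal. The log2 difference was 1.37 (SE 0.28), and 1.06 without SGM4.

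LUM, a proteoglycan of collagen fibrils, had 167, 306, 181, 144 and 164 normalized counts in F1 Veh and 748, 247, 191, 243 and 181 in F1 sGC. The groups overlapped, and SGM4 alone was above the highest Veh animal. FBLN1, a glycoprotein of basement membranes and elastic fibres, had 443, 302, 296, 309 and 196 normalized counts in Veh and 1092, 322, 393, 479 and 312 in sGC, with 2 sGC animals above the highest Veh animal. The log2 difference was 0.56 (SE 0.28) for LUM and 0.62 (SE 0.25) for FBLN1. Without SGM4 these values were 0.20 and 0.31. The median log2 difference of the 4 members was 1.00, and that of all 11874 genes tested in F1 was 0.07. Nothing is read from the members' median, because OLFML1 and THSD4 were chosen by their rise in this contrast. An adjusted p under 0.05 was reached by 2 of the 4 members, OLFML1 and THSD4, beside 0.657% of all genes tested (limma with Benjamini-Hochberg adjustment), and nothing is read from that count because the contrast was used to choose them. The count over all genes, 78, was between 1943 and 2084 under the scaling alternatives and between 15 and 474 with each animal left out. The count of members was 0 without the variance trend, 0 without Veh animal SGM15 or SGM19, and 1 without Veh animal SGM11 or with the robust fit.

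**Figure D1:**
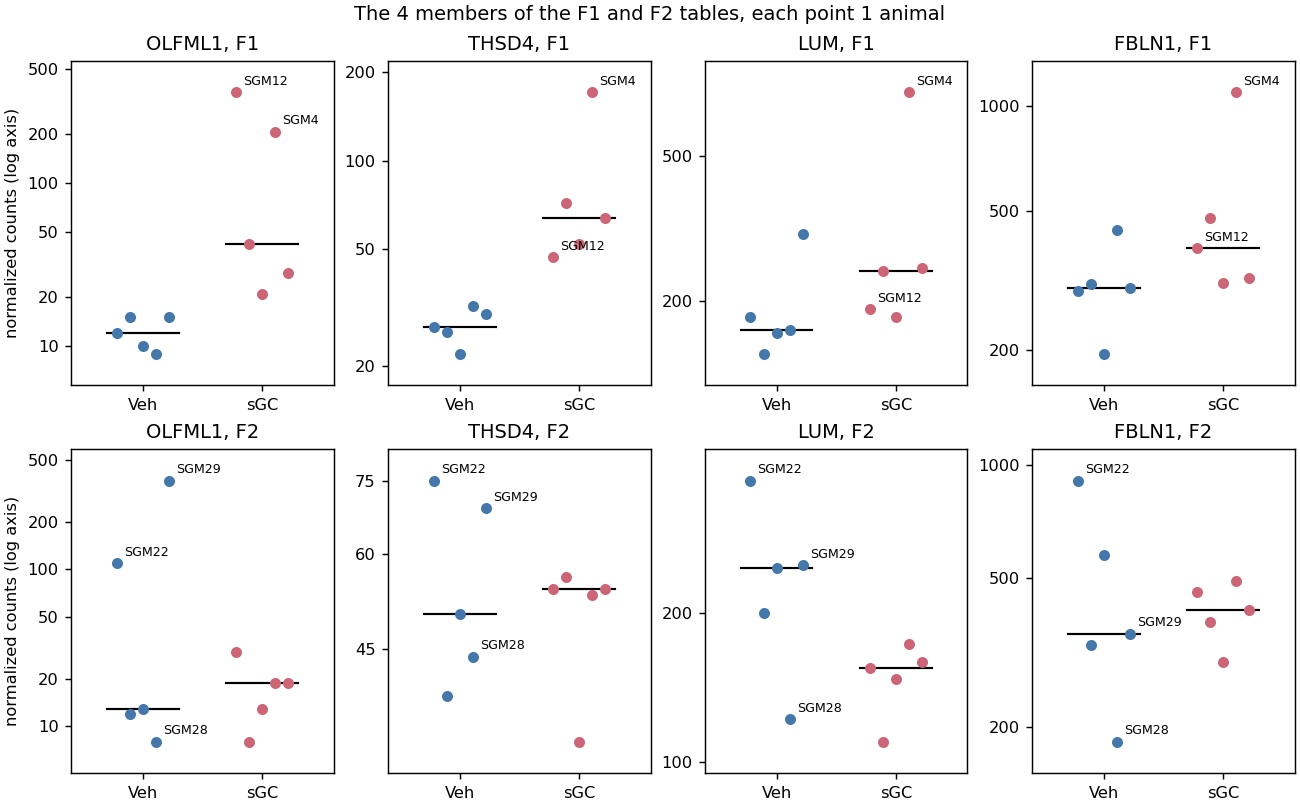
Normalized counts (vertical axis, log scale) of OLFML1, THSD4, LUM and FBLN1 in F1 (top) and F2 (bottom), with 1 point per animal, Veh in blue, sGC in red and the group median as a line. The highest F1 points belong to the sGC animals SGM4 and SGM12, and the highest F2 points to the Veh animals SGM22 and SGM29.

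In F2 the animals with the highest values were Veh animals, and no member passed the test. OLFML1 had 110, 12, 13, 8 and 369 normalized counts in the F2 Veh animals SGM22, SGM23, SGM27, SGM28 and SGM29. In the F2 sGC animals SGM21, SGM26, SGM30, SGM24 and SGM25 it had 30, 19, 19, 8 and 13. SGM29 and SGM22 stood far above the rest, and the remaining 3 Veh animals lay within the range of the sGC group. The medians, 13 in Veh and 19 in sGC, and the means, 102 ± 155 and 17.8 ± 8.23 (SD, n = 5 each), were in opposite order. The log2 difference was -1.09 (SE 0.86, 95% confidence interval from -2.94 to 0.77, adjusted p = 0.628 by limma), and -0.25 without SGM29.

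LUM had 369, 200, 246, 122 and 249 normalized counts in F2 Veh and 155, 173, 159, 110 and 147 in F2 sGC. Of the Veh animals, 4 were above all sGC animals, and SGM28 was below 4 of them. The log2 difference was -0.60 (SE 0.24, 95% confidence interval from -1.10 to -0.09), with an unadjusted p of 0.0245 and an adjusted p of 0.365 by limma. Without Veh animal SGM28 the difference was -0.81 with an adjusted p of 0.0429 (limma), and over the other animals left out in turn the adjusted p lay between 0.334 and 0.653.

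THSD4 had 75, 39, 50, 44 and 69 normalized counts in F2 Veh and 54, 53, 54, 56 and 34 in F2 sGC. The sGC animals other than SGM25 lay within 3 counts of each other, and the Veh animals spread around them. FBLN1 had 908, 330, 576, 183 and 355 in F2 Veh and 459, 491, 410, 381 and 298 in F2 sGC, so that Veh held both the highest and the lowest animal. The log2 difference was -0.12 (SE 0.22, 95% confidence interval from -0.58 to 0.35, adjusted p = 0.846 by limma) for THSD4 and -0.02 (SE 0.33, from -0.72 to 0.68, adjusted p = 0.986) for FBLN1. The sign of the FBLN1 difference turned with size factors and with scaling to totals, but not with quantile normalization.

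No member was called in F2, beside 0% of all genes (0 of 11965 by limma). At an unadjusted p under 0.05, 1 of the 4 members was lower in sGC and none was higher, beside 9.17% of all genes lower (1097) and 2.49% higher (298). The median log2 difference of the members was -0.36, and that of all tested genes was -0.08. The members' median was -0.56 without SGM28, -0.21 without SGM22 and -0.16 without SGM29, all Veh animals. F1 and F2 were separate tables with separate animals, and the difference between their effects was not tested.

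The same animal led for most members and for most other genes of the fibroblast list. In F1, sGC animal SGM4 had the highest value for 3 of the 4 members (THSD4, LUM and FBLN1) and for 19 of the 22 further genes, ties included. In F2, Veh animal SGM22 had the highest value for the same 3 members and for 16 of the 18 further genes. OLFML1 was the exception in both tables: its highest animals, SGM12 in F1 and SGM29 in F2, led for 1 of 22 and 0 of 18 further genes. Veh animal SGM28 of F2 was at the other end, with the lowest value for OLFML1 (shared with SGM24), for FBLN1 and for 9 of the 18 further genes. Over the further list, the summed normalized counts were 27517 in SGM4 and between 9258 and 15013 in the other F1 animals. They were 20980 in SGM22, 7883 in SGM28 and between 9855 and 14888 in the other F2 animals.

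**Figure D2:**
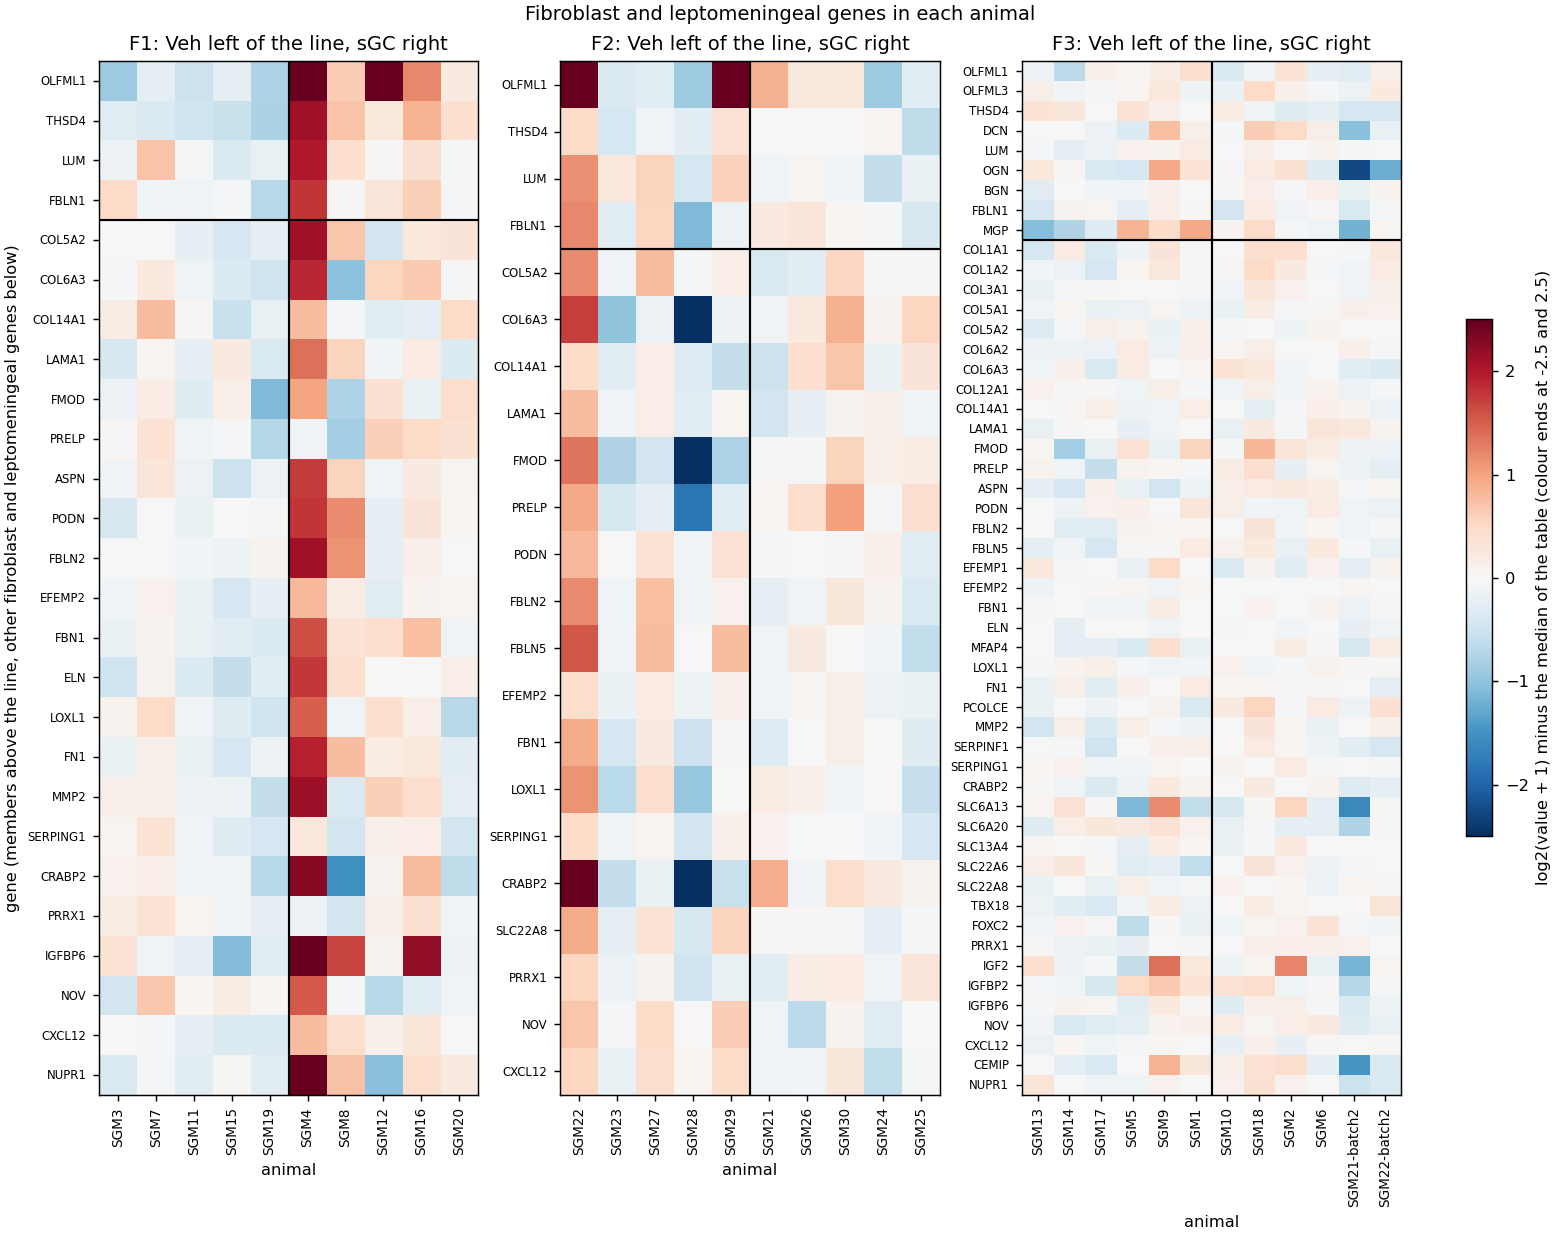
Each cell is log2(value + 1) of 1 gene (rows) in 1 animal (columns) minus the median of that gene over the table, with members above the horizontal line, further fibroblast and leptomeningeal genes below it, and Veh to the left and sGC to the right of the vertical line. SGM4 in F1 and SGM22 in F2 are the columns with the most red cells, and the F3 panel has no such column.

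Of the further fibroblast list in F1, 20 of 22 genes had a higher mean in sGC, and between 18 and 19 under the scaling alternatives. The median log2 difference was 0.54, beside 0.07 over all genes. Under the scaling alternatives it was between 0.46 and 0.48. None was called by limma, and 10 were higher and 0 lower at an unadjusted p under 0.05, beside 12.1% of all genes higher and 1.46% lower. IGFBP6, which binds insulin-like growth factor 2, had between 25 and 69 normalized counts in Veh. In sGC it had 910 in SGM4, 256 in SGM16, 177 in SGM8 and no more than 58 in the other animals (log2 difference 1.85, SE 0.50, adjusted p = 0.0848 by limma). ELN (elastin) reached 1412 and FBN1 (fibrillin-1) 1292 in SGM4, beside no more than 440 and 445 in any Veh animal, with adjusted p of 0.121 and 0.0827 (limma). FN1 (fibronectin) had 6949 in SGM4 and between 1357 and 3103 in the other F1 animals.

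In F2, 12 of the 18 further genes had a lower mean in sGC (11 to 12 under the scaling alternatives). The median log2 difference was -0.13, beside -0.08 over all genes. Under the scaling alternatives it was between -0.08 and -0.05. None was called by limma, and 3 of 18 were lower and 0 higher at an unadjusted p under 0.05, beside 9.17% of all genes lower and 2.49% higher. The 3 genes with the largest differences among those with a mean of at least 50 went the other way, with adjusted p of 0.541 or more (limma). CRABP2, a retinoic acid-binding protein of meningeal fibroblasts, had 811 normalized counts in SGM22, 3 in SGM28, between 92 and 124 in the other Veh animals and between 131 and 263 in sGC. The proteoglycan FMOD had 1704 in SGM22 and 69 in SGM28, and COL6A3 had 1552 and 82. For these genes the Veh group held both extremes, and the sGC animals lay between them.

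Families related to the members were counted in the same way. All 9 tested small leucine-rich proteoglycans outside the members, some of which are also on the further fibroblast list, had higher means in F1 sGC, with a median log2 difference of 0.54 and 0 called. At an unadjusted p under 0.05, 5 of the 9 were higher, beside 12.1% of all genes. In F2, 5 of 7 were lower, and in F3 5 of 8 were higher (6 with quantile normalization), with 0 called in either. The F2 median of these proteoglycans was -0.12, beside -0.08 over all genes. PODN, ECM2 and ASPN led, each highest in SGM4 with 212, 598 and 200 normalized counts beside group medians of 59, 130 and 53 in Veh. All 9 ADAMTS-like and thrombospondin-repeat relatives of THSD4 also had higher means in F1 sGC, or 8 of 9 under each scaling alternative, with 0 called and 7 of 9 higher at an unadjusted p under 0.05, beside 12.1% of all genes. In F2, 7 of the 9 had lower means in sGC, between 5 and 7 under the scaling alternatives, with 1 lower unadjusted beside 9.17% of all genes. The F2 median of the 9 was -0.12, beside -0.08 over all genes. In F3 7 of 9 had lower means, with 4 lower unadjusted beside 6.92% of all genes, and 0 were called in either generation. ADAMTSL4, the relative of THSD4 that also binds fibrillin, had between 224 and 445 in F1 Veh and between 434 and 588 in F1 sGC (log2 difference 0.67, SE 0.16, adjusted p = 0.0569 by limma). The olfactomedin family showed no common direction in F1, with 3 of 5 higher, or 2 of 5 under each scaling alternative. GLDN had a log2 difference of 0.43, and OLFML2B and OLFM1 had -0.35 and -0.28, with adjusted p from 0.181 to 0.503 (limma). In F2 all 5 had lower means in sGC, and in F3 3 of 6, with 0 called in either. The F2 median of this family was -0.13, beside -0.08 over all genes, and between -0.06 and -0.04 under the scaling alternatives.

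Markers of other cell types also differed between animals. In F1, SGM4 had the highest summed values of vascular smooth muscle and pericyte markers (16617, beside 4600 to 6710 in Veh) and of endothelial markers (17009, beside 7090 to 11021 in Veh). It also had the lowest sum of PVN neuron markers, 22764, beside 94432 to 217456 in Veh. Its microglial sum, 7882, was the highest of F1, beside 4042 to 5810 in Veh. Its oligodendrocyte sum, 76485, was above the Veh range of 41861 to 52809, and that of SGM8 was higher still, at 112608. SGM12, with the highest OLFML1, had 150659 for PVN neurons, 6459 for smooth muscle and pericytes and 9053 for endothelium. All were within the Veh range of these unscaled sums. Set against sample totals, its smooth muscle and pericyte sum was above that of every Veh animal. Its PVN neuron and endothelial sums stayed within the Veh range. Low PVN neuron sums were not particular to SGM4: SGM8 had 33228 and SGM20 had 47201. Their unscaled sums over the further fibroblast list, 12266 and 11851, were within the Veh range of 9258 to 14209. The top of that range was SGM7, with the largest F1 total, 21935501, while the total of SGM20 was 16231218. Set against totals, the list sum of SGM20 was above that of every Veh animal, and that of SGM8 was within the Veh range. SGM8 also had an endothelial sum of 14935, above every Veh animal. Over the F1 groups, all 8 PVN neuron markers had lower means in sGC (median log2 difference -0.79), and all 8 mural and all 11 endothelial markers with a row had higher means (medians 0.41 and 0.49). None of these markers was called by limma, beside 0.657% of all genes. The mural list names 12 genes, of which 8 had a row in F1, 8 in F2 and 11 in F3. No marker of these lists was at 0 in any F1 animal. Of the choroid plexus list, 4 of 6 tested genes had a higher mean in sGC and 0 were called. TTR (transthyretin), the defining secreted product of that tissue, was at 0 in SGM3 and SGM12 and had 332 in SGM4 and 492 in SGM20. The part of cell content in the F1 differences was not tested.

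In F2, Veh animal SGM22 had the highest mural sum (10111, beside 3596 to 5444 in sGC) and the highest endothelial sum (12948, beside 7226 to 9026 in sGC). Its astrocyte sum was also the highest, at 168232, and that of SGM28 the lowest, at 96487. The microglial sum of SGM22, 4560, was the highest of F2 as well, beside 2780 to 3977 in sGC. GFAP, the intermediate filament of astrocytes, had 29089 normalized counts in SGM22 and 3088 in SGM28. The PVN neuron sum of SGM22, 97341, was within the Veh range of 61275 to 102211. SGM29, with the highest OLFML1, had the lowest PVN neuron sum of F2. Over the F2 groups, all 8 PVN neuron markers had higher means in sGC, and all 8 mural, 10 endothelial and 10 oligodendrocyte markers with a row lower means, except for 1 endothelial marker under 2 of the scaling alternatives. None of these markers was called by limma, beside 0% of all genes. The part of these markers in the LUM difference was not tested.

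In F3, where 9 members had a row, the groups lay close together and no member passed the test. THSD4 was the member with the clearest separation. It had 39, 45.5 and 50 normalized counts as the lowest, median and highest of 6 Veh animals, and 29, 32.5 and 45 in sGC. All sGC animals except SGM10 were below the lowest Veh animal. The log2 difference was -0.40 (SE 0.12, 95% confidence interval from -0.66 to -0.14), with an unadjusted p of 0.00529 and an adjusted p of 0.203 by limma. Both animals of the second sequencing batch had 29, the lowest value, and within the first batch (6 Veh, 4 sGC) the difference was -0.29 with an adjusted p of 0.490 (limma). In F1 the THSD4 difference was 1.37, of the opposite sign, but THSD4 was chosen for its rise in that contrast, so nothing is read from the change of sign. The difference between generations was not tested.

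The proteoglycans of F3 differed in their spread more than between groups. DCN, which binds collagen and growth factors, had 127, 161.5 and 271 normalized counts as lowest, median and highest in Veh and 78, 167.5 and 248 in sGC (log2 difference -0.07, SE 0.24, 95% confidence interval from -0.59 to 0.44, adjusted p = 0.935 by limma). OGN had 20, 30.5 and 54 in Veh and 5, 24.5 and 36 in sGC. The lowest OGN values, 5 and 11, belonged to SGM21-batch2 and SGM22-batch2, the animals sequenced in the second batch. The log2 difference of OGN was -0.67 (SE 0.40, 95% confidence interval from -1.52 to 0.19, adjusted p = 0.510 by limma), and -0.06 within the first batch. LUM ranged from 194 to 263 in Veh and from 223 to 248 in sGC (log2 difference 0.03, SE 0.07, adjusted p = 0.908 by limma). BGN, the closest relative of DCN, had a median of 576.5 in Veh and 620 in sGC (log2 difference 0.09, SE 0.07, 95% confidence interval from -0.05 to 0.23, adjusted p = 0.605 by limma).

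The other members of F3 overlapped between groups as well. MGP, an inhibitor of calcification in vessel walls, had 24, 56 and 100 normalized counts as lowest, median and highest in Veh and 22, 51.5 and 72 in sGC (log2 difference -0.14, SE 0.36, adjusted p = 0.916 by limma). OLFML3, a secreted protein of the same family as OLFML1, ranged from 182 to 240 in Veh and from 178 to 282 in sGC (log2 difference 0.05, SE 0.11, adjusted p = 0.889). OLFML1 ranged from 13 to 28 in Veh and from 16 to 27 in sGC (log2 difference -0.07, SE 0.18, 95% confidence interval from -0.46 to 0.31, adjusted p = 0.907 by limma). No F3 animal came near the OLFML1 values above 100 that SGM4 and SGM12 of F1 and SGM22 and SGM29 of F2 had, though tables were normalized separately. FBLN1 ranged from 296 to 445 in Veh and from 288 to 454 in sGC (log2 difference -0.07, SE 0.12, adjusted p = 0.845 by limma).

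**Figure D3:**
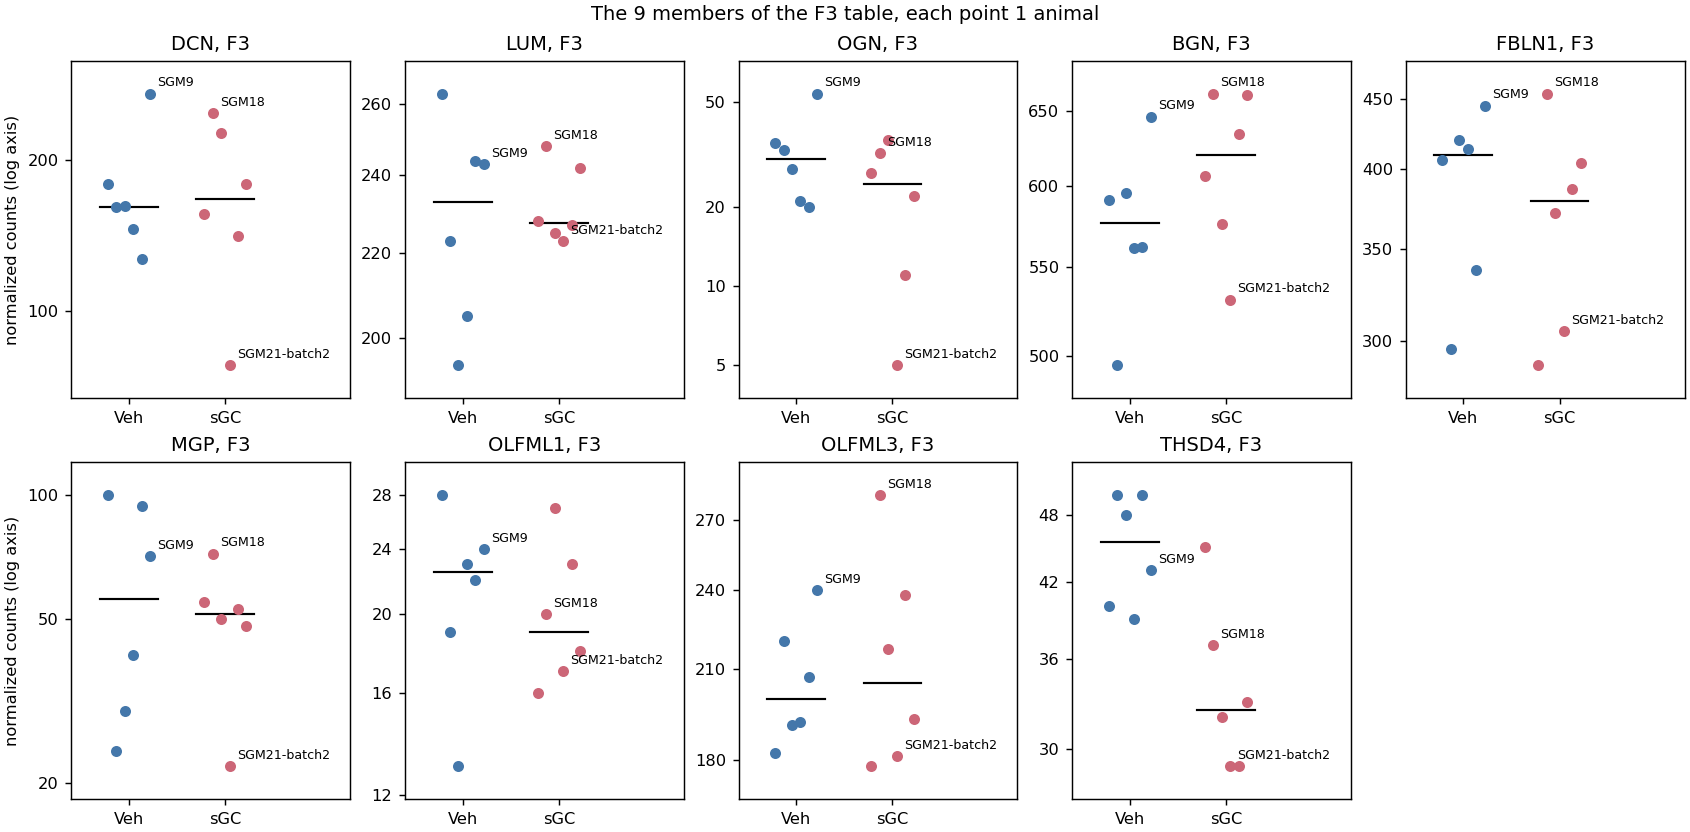
Normalized counts (vertical axis, log scale) of the 9 members in F3, with 1 point per animal, Veh in blue, sGC in red and the group median as a line; SGM9, SGM18 and SGM21-batch2 are named. Veh and sGC overlap for every member, and THSD4 has 5 of 6 sGC animals below the lowest Veh animal.

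Over all members of F3, 0 of 9 were called by limma, beside 0.0506% of all genes tested (6 of 11866). At an unadjusted p under 0.05, 1 of 9 (THSD4) was lower in sGC and 0 were higher, beside 6.92% of all genes lower and 6.19% higher. The median log2 difference was -0.07, and -0.00 over all genes. The members' median turned to 0.05 with batch as a term, 0.04 without SGM21-batch2 and 0.0053 without SGM1. Of the further fibroblast list, 0 of 43 genes were called, 26 had a higher mean in sGC (26 to 27 under the scaling alternatives) and the median log2 difference was 0.03. Unadjusted, 4 were higher and 1 was lower. SLC6A20, a transporter, had a log2 difference of -0.37, the proteoglycan ASPN 0.36 and PCOLCE, an enhancer of collagen processing, 0.29, with adjusted p of 0.271, 0.177 and 0.298 (limma). Of the relatives of THSD4, ADAMTSL4 had between 377 and 440 normalized counts in Veh and between 344 and 377 in sGC (log2 difference -0.18, SE 0.04, adjusted p = 0.125 by limma). Among smooth muscle markers, ACTA2 had between 90 and 141 in Veh and between 156 and 210 in sGC, with an adjusted p of 0.0768 (limma). MYH11 and TAGLN had log2 differences of 0.87 and 0.33, with adjusted p of 0.138 and 0.203 (limma). Of the 11 tested smooth muscle and pericyte markers, 9 had a higher and 2 a lower mean in sGC. Their median log2 difference was 0.04, with 0 called. Their summed values overlapped, at 7787 to 8861 in Veh and 8330 to 9511 in sGC.

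**Figure D4:**
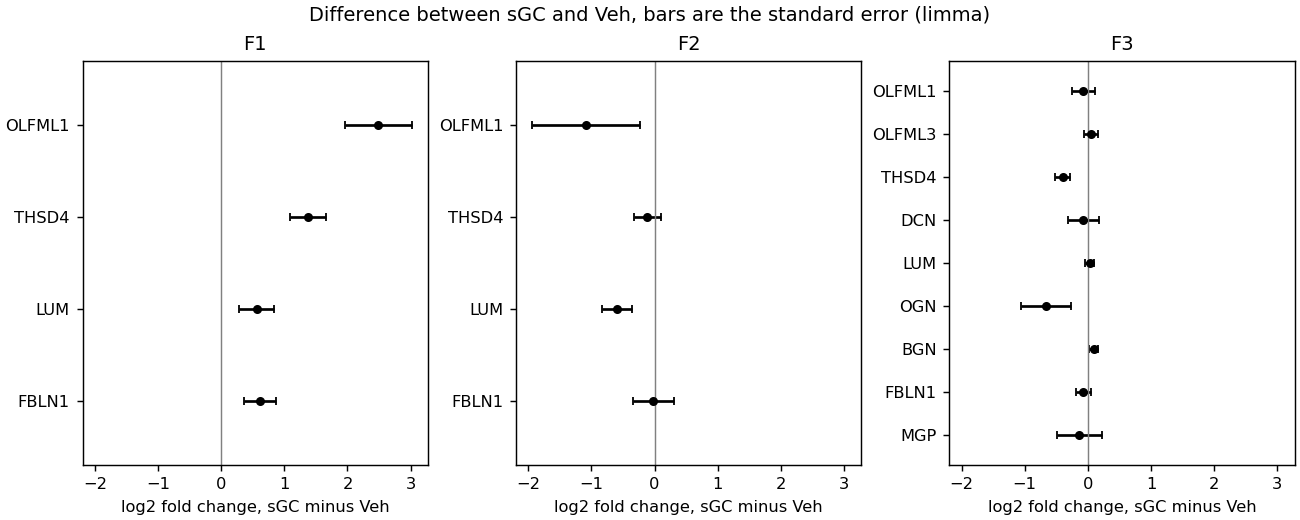
Difference between sGC and Veh on the log2(value + 1) scale (horizontal axis) for each member with a row in F1, F2 and F3, with the standard error from limma as bars. In F1 all 4 points are above 0, in F2 all 4 are below 0, although FBLN1 turned above 0 when the samples were scaled to their totals or by size factors, and in F3 every point except OGN and THSD4 is within 0.14 of 0.

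In F3 no animal led for most members. SGM18 (sGC) was highest for OLFML3, BGN and FBLN1 and for 13 of the 43 further genes, ties included, SGM1 (Veh) for OLFML1, LUM and MGP, and SGM9 (Veh) for DCN and OGN and for 11 further genes. SGM13 and SGM5 shared the highest THSD4. SGM21-batch2 was lowest for DCN, OGN and MGP, shared the lowest THSD4, and was lowest for 10 of the 43 further genes. SGM22-batch2, of the same second batch, was lowest for THSD4 only, and for 1 further gene. The second batch held no Veh animal among those analysed, so within it sGC and Veh cannot be compared. With batch as a term, the log2 difference was 0.23 for DCN and 0.09 for MGP, both opposite in sign to the values over all 12 animals, and no member was called.

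DCN and OGN varied together across F3 animals. Over 12 animals, Pearson's r of their log2 values was 0.89 (permutation p = 0.00011, adjusted p = 0.00121 over 11 relations) and Spearman's rho was 0.87 (permutation p = 0.00047, adjusted p = 0.00517). Without SGM21-batch2 and SGM9, the animals farthest from the median of DCN, r was 0.64 (n = 10, permutation p = 0.0492). Within the first batch r was 0.81 (n = 10, permutation p = 0.00412), within Veh 0.96 and within sGC 0.94 (n = 6 each). Of the 43 further fibroblast genes in F3, 11 were highest in SGM9, and 9 of these, among them IGF2 and the meningeal transporter SLC6A13, were lowest in SGM21-batch2. This count was made after the values were seen, and the other 32 genes were highest in other animals. The order was not limited to fibroblast genes: astrocyte GFAP was also highest in SGM9 (16729) and lowest in SGM21-batch2 (7045). The astrocyte sum, however, was highest in SGM18 and lowest in SGM14. SGM9 had the lowest F3 sums of PVN neuron (16716), oligodendrocyte (54761) and microglial (3841) markers. The part of cell content in the relation of DCN and OGN was not tested. The 7 other members did not pass the adjusted threshold with DCN in F3, nor did the 3 relations of LUM in F2, where r was 0.72 with FBLN1, 0.69 with OLFML1 and 0.53 with THSD4 over 10 animals (adjusted permutation p = 0.0840 or more).

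The spread between animals of the same group was large for these genes. The SD of OLFML1 within groups was 1.29 on the log2 scale in F1, larger than that of 99.7% of tested genes, and 1.72 in F2, larger than that of 99.9%. In F3 it was 0.32, larger than that of 95.0%. FBLN1 exceeded 96.6%, 97.2% and 89.9% of tested genes in F1, F2 and F3, and LUM exceeded 97.6%, 92.7% and 71.3%. THSD4 exceeded 94.9%, 87.8% and 86.1%. Of the members with a row in F3 alone, OGN exceeded 99.8% of tested genes, MGP 99.7%, DCN 98.6%, OLFML3 87.2% and BGN 71.3%. These shares describe genes of all levels together, and the residual normalization by the authors removed some of the spread between animals before deposit.

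**Figure D5:**
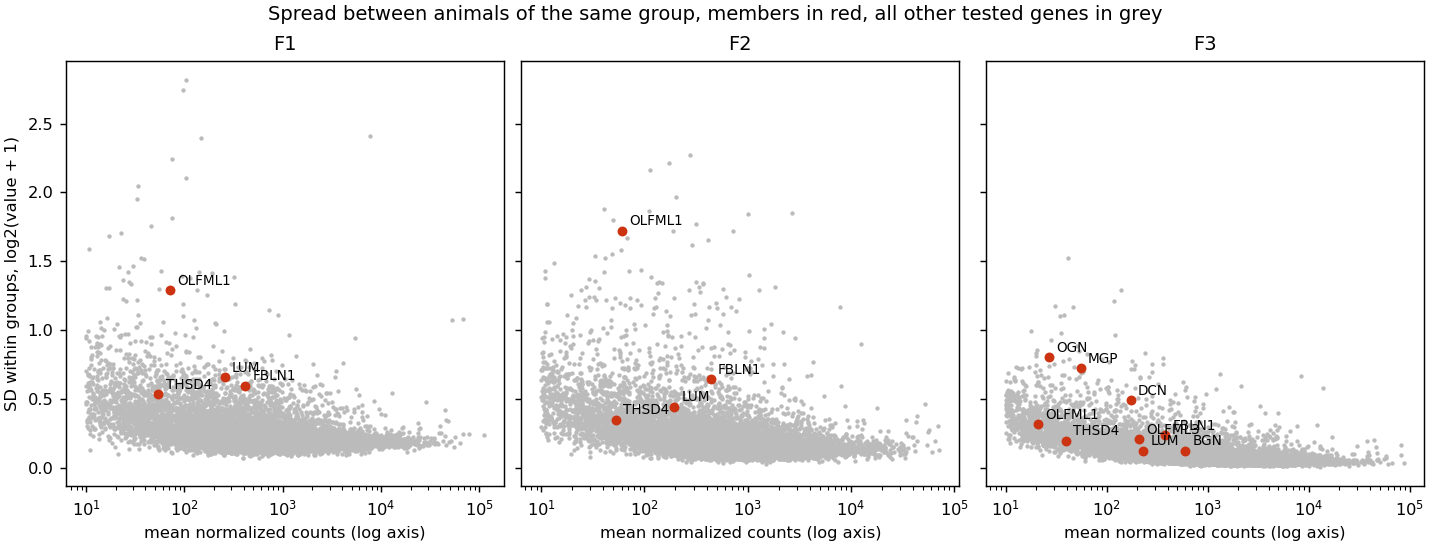
Each point is 1 tested gene, with its mean normalized count (horizontal axis, log scale) and the SD of its log2(value + 1) between animals of the same group (vertical axis), members in red. OLFML1 lies near the upper edge in F1 and F2, where its SD was 1.29 and 1.72, and OGN, MGP and DCN lie highest among the members in F3.

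Among the genes outside the members whose variation between animals was most like the mean of the members, out of 11425 genes ranked, were CCND1, SLC13A3, FBN1, CRABP2, WNT16, SLC41A1 and SYNE2. The measure was Pearson's r of values centred on each group, averaged over the 3 tables (10, 10 and 12 animals), and it ranged from 0.77 for SYNE2 to 0.84 for CCND1. FBN1 and CRABP2 were also on the further fibroblast list. CCND1 (cyclin D1), a driver of the cell cycle, had 2086 normalized counts in SGM4 and between 741 and 1030 in the other F1 animals. In F2 it had 693 in SGM22, 315 in SGM28 and between 373 and 547 in the rest. These genes were all highest in SGM4 in F1 and in SGM22 in F2, and in SGM9 or SGM1 in F3. The members' mean against which they were ranked was itself highest in SGM4 in F1 and in SGM22 in F2. That the ranked genes peak in these animals is therefore largely set by the ranking. The members' own r with their mean, which contains them, averaged over the tables, was 0.74 for OLFML1, 0.61 for THSD4, 0.76 for LUM and 0.72 for FBLN1. For THSD4 it was 0.81 in F1, 0.82 in F2 and 0.19 in F3, and for OLFML1 0.78, 0.93 and 0.52.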

How the data were processed

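Tissue punches holding the PVN were sequenced as poly(A) libraries in 5 Veh and 5 sGC animals of F1, 5 and 5 of F2 and 6 and 6 of F3. The authors aligned reads to cavPor3 (TopHat2 is named in the submitters' processing notes), counted them on genes with GenomicAlignments, removed outliers by Cook's distance and normalized by residuals with RUVSeq; F3 batches were first corrected with ComBat. The deposited values are these normalized counts rounded to whole numbers, taken as a score, since they are no longer read counts, and no count test was used. Along 1 direction of the animals in F1, 1 in F2 and 2 in F3, the deposited values held almost no variation. These are called the removed directions here, on the assumption that the residual normalization removed them. The main fits made no allowance for this, so their p-values may be too small. The tables also hold the authors' own comparisons from edgeR (fold changes, test statistics and p-values), which were not used.

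Each generation was fitted alone with limma 3.58.1 (lmFit, eBayes with trend) in R 4.3.3 on log2(value + 1), two-sided, over genes whose mean reached 10, with Benjamini-Hochberg adjustment over all genes tested and a threshold of 0.05. Fold changes are on the log2(value + 1) scale and understate those of low genes. Totals were not scaled, and scaling is among the alternatives. Correlations used 100000 permutations (SciPy 1.17.1). The fit was tested on simulated data. Members and lists were chosen with earlier results of these data known. Named genes were all members; of each list, any gene called, otherwise the 3 with the largest absolute change among genes with a mean of at least 50; and the 8 genes most like the members, of which 1 is not reported here. Other genes named were picked after their values were seen. The labels do not say whether animals of a group shared a litter. Lists of ependymal, microglial and oligodendrocyte markers served as further checks: in F1, 3 of 7, 5 of 8 and 9 of 9 had a higher mean in sGC, in F2 7 of 7, 0 of 7 and 0 of 10, and in F3 4 of 7, 7 of 8 and 8 of 9, and of the astrocyte list 7, 5 and 4 of 8, with none called.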

Additional observations from a re-analysis of the deposited data

Results flagged for a closer look

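Of 34 groups of 5 or 6 animals examined (each member in each group), 3 held an animal set apart from the rest of its group, where chance would give about 1.7. LUM in the F1 sGC group was 9.55 on the log2(value + 1) scale in SGM4 (748 normalized counts, beside 181 to 247 in the other 4). THSD4 in the F2 sGC group was 5.13 in SGM25 (34, beside 53 to 56). MGP in the F3 sGC group was 4.52 in SGM21-batch2 (22, beside 48 to 72). This animal was sequenced in the second batch.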

How the results depend on the processing

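In F1, 78 genes were called over all; with median-of-ratios size factors the count was 2058, with scaling to the mean total 1943, with quantile normalization 2084, without trend 30 and with the robust fit 179. Leaving out each animal gave 15 (without Veh SGM15) to 474 (without Veh SGM7). Of the members, 2 were called in F1, but 0 without trend and 1 with the robust fit, and 0 to 2 with each animal left out (0 without Veh SGM15 or SGM19, 1 without Veh SGM11). OLFML1 and THSD4 were chosen from this contrast, so these member counts are a description and not a test. Of the further fibroblast genes 0 were called in F1, 1 under each of the 3 scalings and under the robust fit, and 0 to 4 with each animal left out (1 without Veh SGM7, 3 without sGC SGM20, 4 without sGC SGM12). In F2, 0 genes were called over all, 42 with quantile normalization, 17 with a mean of at least 50, 64 with the robust fit, and 0 to 114 with each animal left out (86 without Veh SGM22, 114 without Veh SGM28, 23 without sGC SGM30). The member called without Veh SGM28 (0 to 1 members over the animals) was LUM. The log2 difference of FBLN1 in F2 turned to 0.054 with size factors and 0.064 with scaling to totals, and ranged from -0.31 to 0.27 with each animal left out (0.27 without Veh SGM22, 0.10 without Veh SGM27, 0.09 without sGC SGM25). That of THSD4 in F2 ranged from -0.23 to 0.015, reaching 0.0021 without Veh SGM22 and 0.015 without sGC SGM25. In F3, 6 genes were called over all, 10 without trend, 1 with the removed directions as covariates, 3 with batch as a covariate, 2 within the first batch, and 1 to 15 with each animal left out (15 without sGC SGM18). With batch as a covariate and within the first batch, DCN turned to 0.23 and MGP to 0.090. With each animal left out, the F3 log2 difference ranged from -0.20 to 0.13 for DCN (0.06 without Veh SGM9), from -0.36 to 0.076 for MGP (0.03 without Veh SGM5, 0.05 without Veh SGM1), from -0.017 to 0.070 for LUM (-0.0012 without Veh SGM17), from -0.20 to 0.0053 for OLFML1 and from -0.030 to 0.10 for OLFML3. The cause of these shifts was not tested. Every other member kept its sign and its side of the threshold under every alternative run, except LUM in F2 and the F1 calls given above; with a mean of at least 50, THSD4, OGN and OLFML1 in F3 were not tested. No paired analysis was possible because the groups compared share no replicate numbers. The paper gives an approximate sequencing depth per sample, and greater depth and longer reads for the second F3 batch. The number of reads behind each deposited value is still unknown, which leaves the counting error of low genes such as OLFML1 and OGN unknown.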
